A study of Mus musculus with 36 samples.

Results

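The prefrontal cortex (PFC) was compared with the nucleus accumbens (NAC) in mice that had received only saline, using 13 of the 36 arrays of a study of modafinil in 3 brain regions. All 8 arrays labelled as vehicle PFC and all 5 labelled as vehicle NAC were taken, by label alone. The animals were male C57B1/6J mice of the vehicle group of a place preference experiment. Saline was their only injection in the conditioning phase, from day 3 to day 10, and they were killed on day 11, when 24 h had passed since the final dose. No transgene or deletion was involved, and no drug had been given. A punch 1 mm wide was taken from slices 100 µm thick, so each array reads bulk tissue and not a sorted cell type. For the NAC, RNA of 2 tissue pieces was pooled where its integrity number was above 7, and for the PFC the labels ask for integrity numbers of 7 to 10 and mention no pooling. The labels do not say that each array is a different mouse, so p-values here measure only the spread between these arrays, which may be technical. A second set of 8 PFC and 5 NAC arrays, from mice that had modafinil (65 mg per kg) in place of saline on alternate days, served for comparison only.

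The accumbens is the ventral part of the striatum. Nearly all of its neurons are GABA-releasing projection neurons that receive dopamine, and they fall into a class with the D1 receptor, dynorphin and substance P and a class with the D2 receptor and enkephalin. The prefrontal cortex is layered, its principal neurons release glutamate and project to the accumbens among other targets, and its GABA neurons are local interneurons. The striatum has no layers and no glutamatergic principal neurons of its own. The medial cortex is covered by meninges, while white matter tracts run through and beside the accumbens.

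The deposited values were on separate scales. Array medians were 7.21 to 7.27 (log2) in the PFC and 6.84 to 6.89 in the NAC, a difference of 0.378 between the middle arrays. Quantile normalization of the 13 arrays together moved the PFC median by −0.14 and the NAC median by 0.24, and all values below are from that scale unless said otherwise. Probe sets for the bacterial RNA spiked in at hybridization still differed between the regions, by −0.90 to −0.09 (PFC minus NAC, median −0.38, 18 probe sets), and those of spikes added before labelling by −0.06 to 0.40 (median 0.20, 24 probe sets). The 3′ minus 5′ signal of Actb, a sign of RNA quality and labelling, was 1.07 ± 0.10 (SD, n = 8) in the PFC and 0.68 ± 0.060 (SD, n = 5) in the NAC (exact two-sided permutation p = 0.000777, the smallest that 1287 splits allow). That of Gapdh was 0.091 ± 0.078 and −0.096 ± 0.054 (exact p = 0.00155). The 3 control probe sets for mouse 18S ribosomal RNA differed by more, −1.51 to −1.31 (PFC minus NAC, median −1.34). Tissue region, RNA extraction and the authors' normalization changed together and cannot be told apart, so a small difference, well under 1 log2 unit, is not read here as one between regions. A size of 1 is no bound on technical shifts, and their part in larger differences was not tested.

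The 3 marker genes of the regions did not all separate them. Drd2, the D2 dopamine receptor, read 9.39, 9.50, 9.42, 9.57 and 9.74 in the NAC arrays and 5.25 to 5.73 (median 5.52) in the PFC arrays. Ppp1r1b (DARPP-32, the dopamine-regulated inhibitor of protein phosphatase 1), ranged from 7.55 over a median of 7.84 to 8.08 in the PFC, against 10.89, 9.96, 10.69, 11.01 and 11.24 in the NAC. For both genes every NAC array lay above every PFC array, on average by 16.3-fold for Drd2 (log2 difference PFC minus NAC −4.02, SE 0.076, adjusted p = 9.12e-14) and 7.53-fold for Ppp1r1b (−2.91, SE 0.17, adjusted p = 4.85e-09). Tbr1, a transcription factor of cortical excitatory neurons, was at 8.77 to 9.54 (median 9.52) in the PFC and at 8.93, 9.91, 8.83, 8.996 and 7.13 in the NAC. NAC array 2 was thus above every PFC array, NAC array 5 was far below all others, and the difference of 0.63 (SE 0.32) did not pass (adjusted p = 0.105). Without NAC array 2 it was 0.91 (adjusted p = 0.0126), and without NAC arrays 2 and 5, an alternative added after the data were seen, 0.46 (adjusted p = 0.013). Striatal markers were thus high in all 5 NAC arrays, while this cortical marker was not low in all of them.

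**Figure D1:**
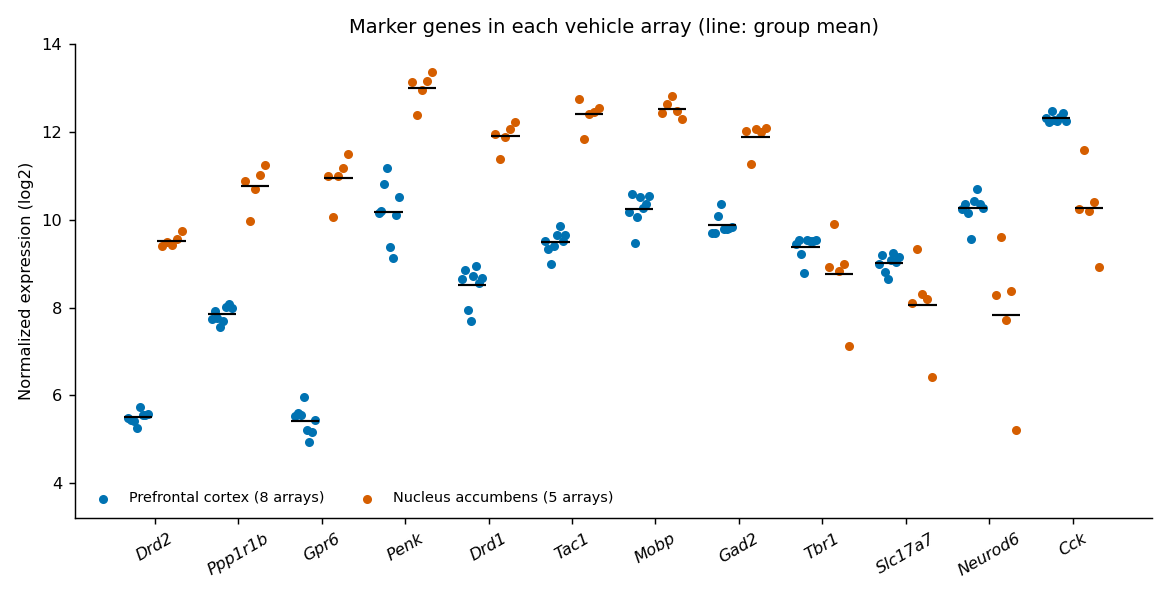
Normalized log2 expression of 12 genes in each of the 8 PFC arrays (blue) and 5 NAC arrays (orange) of vehicle mice, with lines at the group means. The striatal genes, Mobp and Gad2 separate the regions without overlap, while NAC arrays reach into the PFC range for Tbr1, Slc17a7 and Neurod6.

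The NAC arrays carried cortical transcripts to a varying degree. The mean log2 level of a list of 32 tested genes of cortical excitatory neurons was 10.11 to 10.36 (median 10.32) in the PFC arrays and 9.55, 10.04, 9.58, 9.61 and 8.99 in NAC arrays 1 to 5. That of 27 genes of striatal projection neurons was 8.73 to 8.81 (median 8.78) in the PFC arrays and 10.62, 10.00, 10.51, 10.71 and 10.97 in NAC arrays 1 to 5. Among the NAC arrays the 2 lists ran in opposite order at the ends, array 2 being highest on the cortical and lowest on the striatal list and array 5 the reverse. Slc17a7, the vesicular glutamate transporter of cortical neurons, read 8.11, 9.33, 8.30, 8.18 and 6.42 in the NAC arrays and 8.66 to 9.24 (median 9.05) in the PFC arrays. Neurod6, a transcription factor of the same neurons, ranged from 9.55 over a median of 10.31 to 10.69 in the PFC, against 8.29, 9.60, 7.72, 8.37 and 5.203 in the NAC. Nr4a2, a nuclear receptor that marks the deepest cortical layer and the claustrum, was at 8.93 to 9.72 (median 9.43) in the PFC and at 9.95, 11.53, 10.21, 10.51 and 8.88 in the NAC. The part of these arrays in the cortical results is given below by leaving them out.

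The PFC arrays were not alike either. The level of 10 meningeal genes was 7.56 to 9.40 (median 8.11) in the PFC arrays and 7.62, 7.88, 7.92, 7.68 and 7.57 in NAC arrays 1 to 5. PFC arrays 3, 4 and 2 held the 3 highest values, at 9.40, 9.27 and 8.80. Arrays 3 and 4 were also lowest on the list of cortex layers 5 and 6, at 8.76 and 8.73 against 8.98 to 9.11 in the other PFC arrays, and highest on the astrocyte list, at 10.01 and 10.10 against 9.59 to 9.83. Correlation over all probe sets was nonetheless high, with each array's mean r at least 0.99 to its own region and 0.964 to 0.977 to the other.

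**Figure D2:**
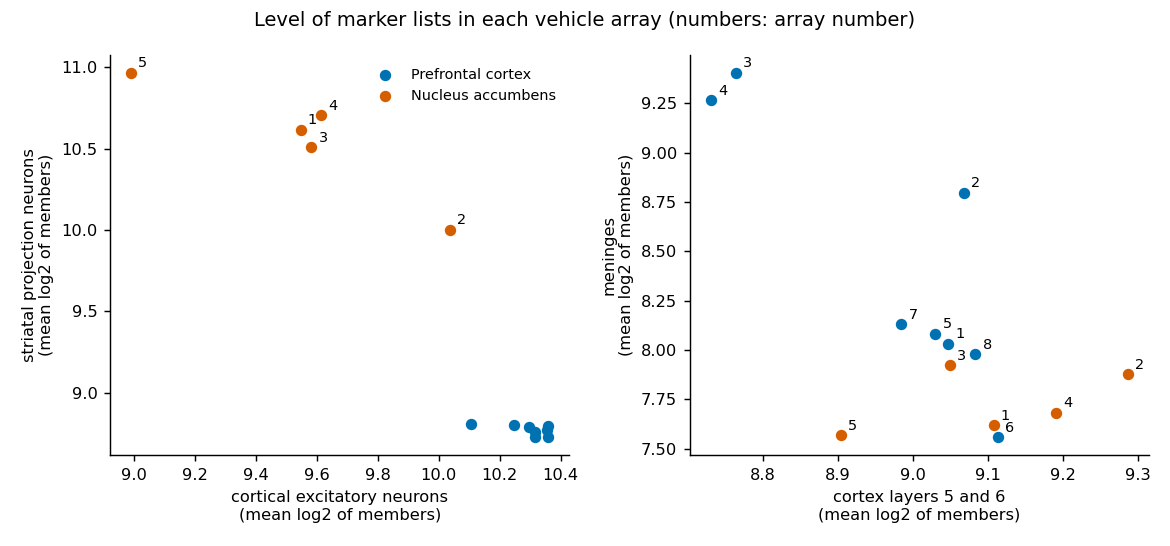
Mean log2 level of marker lists in each vehicle array, PFC in blue and NAC in orange, with array numbers. On the left, NAC array 2 is the highest and array 5 the lowest NAC array on cortical genes, and the order is reversed on striatal genes. On the right, PFC arrays 3 and 4 combine high meningeal and low deep-layer levels.

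Over all genes the 2 regions differed widely. Of 27003 probe sets tested, 15729 (58.2%) passed an adjusted p of 0.05 in limma, 8300 of them higher in the PFC and 7429 lower. Centring each array on its median instead gave 10136 higher and 5768 lower, and the deposited values, with no joint normalization, 21516 and 1735, so small differences have no firm direction and the text dwells on those of at least 1 (log2), a doubling. There were 1261 such probe sets, 550 higher and 711 lower in the PFC, covering 784 named genes, and in 1140 of them no NAC array overlapped a PFC array. Of all 15729 that passed, 8383 did not overlap, and probe sets chosen for their size overlap less by that choice. The balance at this size also moved with the scale: 659 were higher and 631 lower under median centring, and 1879 and 321 in the deposited values. With 1 probe set per gene it was 299 higher and 231 lower. On the joint scale the largest differences were more often toward the NAC. There, 123 probe sets were lower in the PFC by at least 2 and 64 higher, 29 against 12 by at least 3, and 7 against 1 by at least 4. Read as 1 probe set per gene, 33.9% of 12572 genes were higher and 22.4% lower in the PFC, 2.38% and 1.84% by at least 1, with a median difference of 0.050. These shares are the background for the lists below. Members and lists were chosen with earlier results of these data known. A list's excess over the shares therefore describes that list and is not a test. A list whose counts lie near the shares is not read as leaning to a region. In bulk tissue fewer cells of a type and less RNA per cell cannot be told apart.

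The genes furthest toward the NAC differed in kind. Gpr6, an orphan receptor of D2 class neurons, read 10.996, 10.07, 10.99, 11.17 and 11.49 in the NAC arrays and 4.94 to 5.96 (median 5.48) in the PFC arrays. No array came near the other group, and the 45.8-fold difference (−5.52, SE 0.20, adjusted p = 7.48e-11) was the largest of any named gene tested. Slc35d3, a membrane protein linked to D1 receptor trafficking, differed by −4.75 although PFC array 4 reached 7.65 against a PFC median of 4.17. Serpina9, a serine protease inhibitor, differed by −4.36, Nexn, an actin-binding protein, by −3.79, and Ido1, an enzyme of tryptophan breakdown, by −3.55. Syndig1l, a membrane protein of striatal neurons, differed by −4.92 on its probe set of largest difference and by −2.08 on its brightest. Many PFC values of these genes lie at 4 to 6, at the low end of the scale; no detection calls were used, so such a value is not shown to be expression or its absence.

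In the other direction the leading genes were a mixed group. Grp, gastrin-releasing peptide, ranged from 8.62 over a median of 9.15 to 9.38 in the PFC, against 4.78, 6.33, 5.16, 4.78 and 4.601 in the NAC. NAC array 2 was again the highest of its group, but no array overlapped, and Grp was 15.8-fold higher in the PFC (3.98, SE 0.23, adjusted p = 5.95e-09). Scn7a, an atypical sodium channel, differed by 3.77, and Glt8d2, a glycosyltransferase-like protein, by 3.66 on its probe set of largest difference and 2.69 on its brightest. Smoc2, a secreted calcium-binding matrix protein, differed by 3.64, Pter by 3.49, and Adam33, a membrane metalloproteinase, by 3.21 on 1 probe set and only 0.32 on its brightest. Ovol2, a zinc finger repressor, and Tnnc1, the slow muscle and heart form of troponin C, differed by 3.07 and 2.97. C1ql3, a secreted synaptic organizer, was at 12.12 to 12.47 (median 12.24) in the PFC and at 9.03, 10.84, 9.19, 9.27 and 8.14 in the NAC. A probe set annotated as Trbv1, a T cell receptor segment, differed by 4.39; what it reads in brain was not examined. Npr3, the clearance receptor for natriuretic peptides, fell below the expression filter and has no test, and was chosen after its values were seen. It read 3.16, 5.82, 3.33, 3.46 and 3.19 in the NAC arrays and 7.42 to 8.45 (median 8.33) in the PFC arrays, so that the groups did not overlap.

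Upstream sequence is shown for genes picked from those with large differences, to set their promoters beside the opposite levels. They are Drd2, Gpr6 and Tac1, high in the NAC, and Cck and Neurod6, high in the PFC. Only Drd2 and Gpr6 are among the 12 named genes of largest difference in their direction. Each run is the 250 bases before the annotated start (RefSeq, GRCm38.p6), on the strand of the gene. Capitals mark matches, on either strand, to TGACGTCA (the cAMP response element), TGCGTCA (a variant of it), CAGATG and CACGTG (E-boxes), TATAAA (a core promoter box) or GGGCGG (GC box), and no marked matches overlap.
Drd2 (chr9:49340153-49340402, plus strand): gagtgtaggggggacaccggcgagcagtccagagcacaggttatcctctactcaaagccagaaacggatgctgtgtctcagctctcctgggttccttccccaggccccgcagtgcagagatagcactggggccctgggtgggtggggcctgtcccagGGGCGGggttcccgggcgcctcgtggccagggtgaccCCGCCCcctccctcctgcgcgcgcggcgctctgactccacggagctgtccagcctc
Gpr6 (chr10:41072291-41072540, minus strand): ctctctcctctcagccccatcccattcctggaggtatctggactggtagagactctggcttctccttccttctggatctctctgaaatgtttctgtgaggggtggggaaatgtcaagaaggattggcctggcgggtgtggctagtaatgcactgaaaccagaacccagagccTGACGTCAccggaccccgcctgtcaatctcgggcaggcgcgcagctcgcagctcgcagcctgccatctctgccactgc
Tac1 (chr6:7554811-7555060, plus strand): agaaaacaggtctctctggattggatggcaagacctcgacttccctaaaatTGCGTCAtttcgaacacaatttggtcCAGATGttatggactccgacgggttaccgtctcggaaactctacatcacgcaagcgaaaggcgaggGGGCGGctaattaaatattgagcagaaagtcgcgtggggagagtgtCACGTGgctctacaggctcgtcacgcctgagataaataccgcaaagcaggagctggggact
Cck (chr9:121495695-121495944, minus strand): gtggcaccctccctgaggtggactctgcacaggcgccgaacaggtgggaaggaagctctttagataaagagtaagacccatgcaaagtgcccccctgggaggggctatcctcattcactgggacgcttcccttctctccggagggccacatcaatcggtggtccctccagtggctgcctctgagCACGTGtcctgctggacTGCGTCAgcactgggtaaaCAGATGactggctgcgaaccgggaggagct
Neurod6 (chr6:55681264-55681513, minus strand): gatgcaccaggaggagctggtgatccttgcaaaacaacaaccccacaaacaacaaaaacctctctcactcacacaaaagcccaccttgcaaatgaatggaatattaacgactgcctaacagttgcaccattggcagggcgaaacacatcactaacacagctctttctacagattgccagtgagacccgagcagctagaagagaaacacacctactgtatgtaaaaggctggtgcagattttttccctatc
Gpr6 holds the full cAMP response element, first base 78 before the start, and Tac1 and Cck hold the variant, 199 and 49 before it. Drd2 holds 2 GC boxes and Neurod6 none of the 6 motifs. The full element is in 1.77% of all 27025 genes with an entry and 3.05% of tested ones, in 4 of 179 genes with an entry that were lower in the PFC by at least 1 (2.23%) and in 3 of 219 that were higher (1.37%). CAGATG is in 16.3% of all genes and 12.2% of tested ones, 16.8% of those lower and 19.2% of those higher. The variant is in 2% of all genes and 3.34% of tested ones, 3.91% of those lower and 1.37% of those higher. CACGTG is in 6.86% of all and 9.94% of tested genes (8.94% lower, 7.76% higher), TATAAA in 14.3% and 8.12% (10.6% lower, 8.68% higher) and GGGCGG in 35.4% and 63.1% (59.2% lower, 54.8% higher). A match describes the letters and does not show a binding site.

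Projection neuron genes of the striatum were lower in the PFC almost without exception. Of 27 tested members of that list, 26 were lower and none higher, 24 of them by at least 1, against 22.4% and 1.84% of all genes, and the median difference was −1.84 against 0.050. Leaving out NAC arrays 2 and 5 gave the same 3 counts and a median of −1.87. Pde10a, the main striatal cyclic nucleotide phosphodiesterase, ranged from 8.99 over a median of 9.25 to 9.39 in the PFC, against 12.85, 12.26, 12.66, 12.74 and 12.95 in the NAC. Its difference of −3.48 (SE 0.10) is an 11.1-fold lower signal in the PFC. Sh3rf2, a scaffold protein with SH3 domains, differed by −3.28, and Scn4b, a sodium channel subunit, by −2.47. The member that did not pass was Rgs7bp, a membrane anchor for RGS proteins, at −0.12.

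The dopamine and cAMP signalling list held related genes that differed in opposite directions, such as the cyclases Adcy5 and Adcy8. Of its 62 tested genes 22 were higher and 28 lower, beside 33.9% and 22.4% of all genes, and the median was −0.09. By at least 1, 2 were higher and 19 lower. That count of 2 ranged from 0 with the filter at percentile 60 to 11 in the deposited values. In the deposited values 37 were higher and 19 lower, and under median centring 25 and 24. Gnal, the G protein subunit that couples the D1 receptor to adenylyl cyclase in striatum, was at 10.03 to 10.61 (median 10.30) in the PFC and at 12.46, 11.65, 12.23, 12.37 and 12.37 in the NAC. Gnas, the subunit used in most other tissues, read 12.43, 12.78, 12.55, 12.42 and 11.84 in the NAC arrays and 12.81 to 12.92 (median 12.84) in the PFC arrays. The arrays of the groups did not overlap for either gene, with differences of −1.89 (SE 0.12) and 0.45 (SE 0.11, adjusted p = 0.00261). The call for Gnas was lost on percentile ranks (adjusted p = 0.18), and its difference is of the small kind that is not read as one between regions.

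Among the adenylyl cyclases, which make cAMP, Adcy5 ranged from 9.23 over a median of 9.38 to 9.49 in the PFC, against 11.08, 10.38, 11.04, 11.25 and 11.65 in the NAC. Adcy1, a calcium-stimulated cyclase of cortex, was at 10.94 to 11.71 (median 11.56) in the PFC and at 10.34, 11.27, 10.36, 10.42 and 10.05 in the NAC. Adcy5 was lower in the PFC by 3.33-fold without overlap, whereas Adcy1 was 1.97-fold higher with NAC array 2 inside the PFC range. Adcy8, also stimulated by calcium, differed by 1.24 (SE 0.19) and Adcy2 by 0.72 (SE 0.11), neither with overlap. Of the γ subunits, Gng7, the partner of Gnal, differed by −2.83 (SE 0.17). Gng2 differed by 0.82 (SE 0.22), with NAC array 2 above every PFC array, and Gng13 by 0.85 (SE 0.093), both under 1.

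Among the tested phosphodiesterases of the lists, which break down cyclic nucleotides, 4 differed by at least 1 and each was lower in the PFC: beside Pde10a, Pde1c differed by −2.99, Pde1b by −2.19 and Pde7b by −1.97. Pde4d was higher, by 0.58 (adjusted p = 3.98e-06). Pde2a was lower, with medians of 12.33 in the PFC and 12.58 in the NAC, but its sign turned in the deposited values (0.23). Pde1a, a near relative of Pde1b and Pde1c, did not pass at 0.27 (adjusted p = 0.174) and its groups overlapped. It passed without NAC array 2, at 0.43 (adjusted p = 0.0135). Prkar2b, a regulatory subunit of protein kinase A, differed by −1.08 and its relative Prkar1b by 0.98. Ppp1r1a, the relative of DARPP-32, read 9.75, 9.49, 9.68, 9.71 and 9.87 in the NAC arrays and 9.41 to 9.74 (median 9.64) in the PFC arrays. Its groups overlapped throughout, and the difference was −0.10 (adjusted p = 0.236) against −2.91 for Ppp1r1b.

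RGS proteins, which end G protein signals, and regulators of Ras-like proteins also held members on both sides, though not in every family. Rgs9 ranged from 8.47 over a median of 8.68 to 8.83 in the PFC, against 11.001, 10.32, 10.76, 11.09 and 11.45 in the NAC. Rgs9 differed by −2.27, while Rgs4 was higher by 0.54, with NAC array 5 inside the PFC range, and Rgs16 by 1.14. Rgs14 was lower in the PFC, with medians of 9.48 in the PFC and 9.73 in the NAC, but its sign turned in the deposited values (0.095). Rasd2 (Rhes, a striatal GTP-binding protein) differed by −1.84 and Rasd1 by 0.46, with overlap, the latter no longer past the threshold without NAC array 2 (0.33, adjusted p = 0.0788) or without NAC array 5 (0.43, adjusted p = 0.0566). Rasgrp2, an exchange factor for Rap proteins, differed by −2.29, and Rasgrp1 by −0.05 (adjusted p = 0.552). The differences of Rgs4, Rgs14 and Rasd1 are of the small kind that is not read as one between regions. Levels of different genes are not compared here, since each probe set has its own scale.

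**Figure D3:**
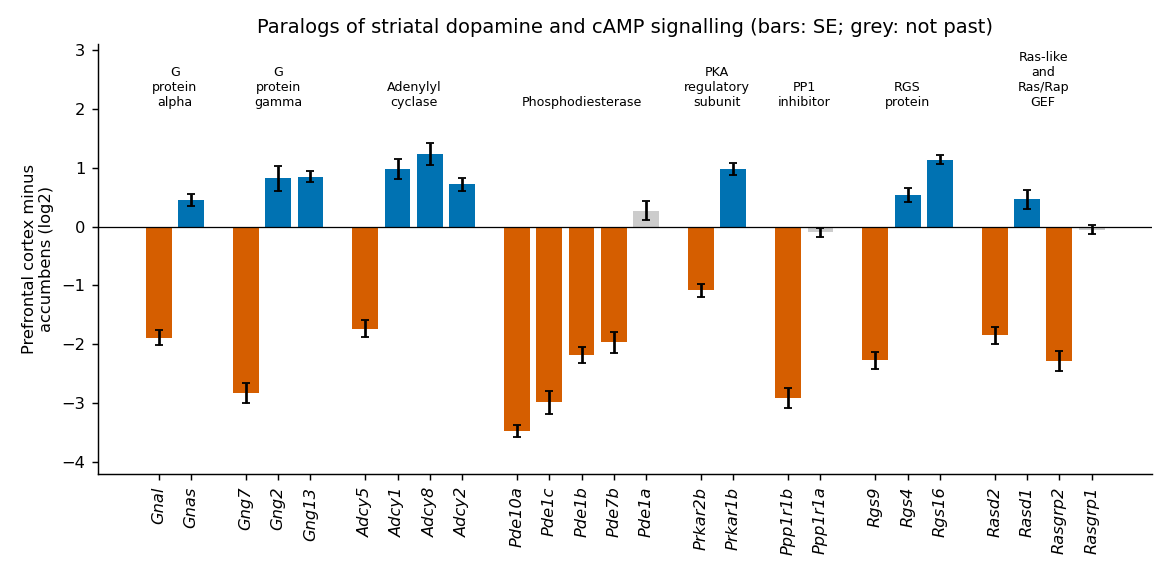
Difference PFC minus NAC (log2, bars) with its SE for 25 genes of dopamine and cAMP signalling, grouped by protein family. Orange bars are lower and blue bars higher in the PFC past an adjusted p of 0.05, grey bars did not pass. Gnal, Gng7, Adcy5, Prkar2b, Rgs9 and Rasd2 point down beside relatives that point up. Not every relative is shown: Rgs14 and Pde2a, both lower in the PFC by small amounts, are left out.

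Receptors and peptides of both striatal output pathways were lower in the PFC. Drd1, the D1 receptor, was at 7.69 to 8.95 (median 8.66) in the PFC and at 11.96, 11.39, 11.88, 12.06 and 12.22 in the NAC. PFC values were spread over more than a log2 unit but stayed under every NAC array, 10.5-fold lower on average. Penk, the enkephalin precursor, read 13.13, 12.39, 12.95, 13.15 and 13.37 in the NAC arrays and 9.13 to 11.19 (median 10.17) in the PFC arrays. Tac1, the precursor of substance P, ranged from 8.98 over a median of 9.51 to 9.85 in the PFC, against 12.75, 11.84, 12.40, 12.46 and 12.53 in the NAC. Neither gene overlapped, with differences of −2.82 (SE 0.29) and −2.91 (SE 0.15), and Pdyn, the dynorphin precursor, differed by −1.78 (SE 0.17). Of 11 tested genes of the D1 class list 8 were lower, 6 by at least 1 (median −1.49), and of 8 of the D2 class list 5 were lower, 4 by at least 1, and 1 higher (median −0.95; 5 and 2 in the deposited values). Members on the other side were Eya1 (0.91), a developmental transcription cofactor, and Pcdh8 (0.76), an adhesion protein, of the D1 list and Plxdc1 (0.84) of the D2 list. The D3 and D4 receptors, Drd3 and Drd4, were below the filter, with no array above 6.45.

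Transcription factors of the striatum were mostly lower in the PFC. Of 19 tested, 15 were lower, 13 by at least 1, and 1 was higher (median −1.49), against 13 and 3 in the deposited values. Six3, a homeobox factor of D2 class neurons, was at 6.62 to 6.92 (median 6.72) in the PFC and at 9.89, 9.58, 9.70, 10.15 and 10.23 in the NAC. Zfp503, a zinc finger factor of striatal development, differed by −3.47, Isl1, needed for D1 class neurons, by −2.86 on its brightest probe set and −4.64 on another, Rarb, a retinoic acid receptor, by −2.41, and Dlx6, of forebrain GABA neurons, by −2.30. Factors shared between striatum and deep cortical layers differed less: Foxp1 −1.66, Bcl11b (Ctip2) −1.60, Foxp2 −1.33. Bcl11a, the relative of Bcl11b, did not pass (0.02, adjusted p = 0.758). The member higher in the PFC was Mef2c, a factor of cortical excitatory neurons that read 11.004, 11.51, 11.09, 10.85 and 10.77 in the NAC arrays and 12.61 to 12.81 (median 12.67) in the PFC arrays.

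Genes that favour the ventral over the dorsal striatum were lower in 12 of 17 cases, 10 by at least 1 (median −1.07), and higher in 3. In the deposited values 11 were lower and 5 higher. Nts, neurotensin, ranged from 4.71 over a median of 5.32 to 6.13 in the PFC, against 10.08, 8.36, 9.94, 9.53 and 9.34 in the NAC. Dlk1, a Notch-related ligand, differed by −3.59, with NAC array 2 lowest of its group at 7.18 against 9.18 to 9.42. Cartpt, the CART peptide precursor, differed by −2.53, and Nnat, an imprinted membrane protein, by −2.20. Calb2, calretinin, Cnr1, the cannabinoid receptor, and Coch, cochlin, were higher in the PFC by 0.92, 0.66 and 0.40, those of Calb2 and Coch with overlap. The call for Calb2 (adjusted p = 0.0498) was lost without any 1 of NAC arrays 1, 3, 4 and 5 and PFC arrays 3, 4, 5, 7 and 8 (adjusted p from 0.0521 to 0.113), and that for Coch (adjusted p = 0.042) without any 1 of NAC arrays 1 to 4 and PFC arrays 1 to 4 (0.0538 to 0.124). Of the list for cholinergic interneurons only 4 of 10 genes on the array passed the filter. Lhx8, their homeobox factor, was below it, and was chosen after its values were seen. It was at 3.17 to 3.54 (median 3.40) in the PFC and at 8.05, 6.42, 7.66, 7.59 and 8.54 in the NAC, with no overlap. Chat, the enzyme that defines these neurons, was also below the filter, at 5.71 to 5.95 in the PFC and 5.16 to 5.71 in the NAC, and so read no higher in the NAC.

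Cortical excitatory neuron genes were higher in the PFC, but by less and less evenly. Of 32 tested, 21 were higher and 3 lower, 10 and 1 by at least 1, with a median of 0.71. Without NAC arrays 2 and 5 the counts were 23, 3, 10 and 1. For Neurod6 the difference was 2.42 (SE 0.50, adjusted p = 0.00076) with overlap, and for Slc17a7 0.95 (adjusted p = 0.0199), also with overlap. Without NAC array 5 Slc17a7 was at 0.54, and its call was lost on percentile ranks (adjusted p = 0.0525) and with the replicate number as a block (0.88, adjusted p = 0.0703). Nrn1, a neurite growth protein, differed by 2.23, and Neurod1 by 2.41 on its brightest probe set. Neurod2, the third relative, did not pass (0.25, adjusted p = 0.264), but passed without NAC array 2 (0.47, adjusted p = 0.00643). On the other side Lmo3, a LIM domain factor, read 10.65, 10.45, 10.74, 10.59 and 10.28 in the NAC arrays and 8.90 to 9.74 (median 9.57) in the PFC arrays. Baiap2 and Cnih2, synaptic proteins present in many neurons, differed by −0.61 and −0.40; in the deposited values Baiap2 did not pass (−0.02, adjusted p = 0.8).

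The layers of the cortex did not stand out alike. Of 22 tested genes of layers 2 to 4, 13 were higher and 3 lower, 4 and 0 by at least 1 (median 0.40), against 19 and 1 in the deposited values. Rasgrf2, an upper layer exchange factor, ranged from 10.75 over a median of 11.35 to 11.89 in the PFC, against 9.52, 9.96, 9.51, 9.09 and 9.10 in the NAC. Cux2 and Rorb, factors of layers 2 to 4, differed by 0.77, with overlap, and 0.66. Of 33 genes of layers 5 and 6, 9 were higher and 12 lower, 4 and 5 by at least 1, and the median was −0.09, but in the deposited values 19 were higher and 6 lower. Fezf2, the factor of subcortically projecting neurons, was at 8.28 to 9.85 (median 9.48) in the PFC and at 7.79, 9.52, 7.28, 7.75 and 7.00 in the NAC. NAC array 2 was within the PFC range and PFC array 4 lowest of its group, and the difference was 1.51 (SE 0.35). Zfpm2, a cofactor of layer 6 neurons, differed by 1.95.

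Deep-layer genes on the NAC side included several that striatal neurons also express. Syt6, a synaptotagmin, differed by −1.67, and Crym, a thyroid hormone-binding protein, by −1.07 with overlap. Ccn2, a matrix signalling protein of the subplate layer next to the white matter, read 10.16, 10.59, 9.50, 10.44 and 9.18 in the NAC arrays and 8.86 to 9.68 (median 9.11) in the PFC arrays. Cplx3, a complexin of the same layer, ranged from 6.66 over a median of 6.84 to 7.22 in the PFC, against 8.01, 8.22, 7.64, 8.35 and 7.10 in the NAC. For Ccn2 NAC arrays 1, 2 and 4 lay above every PFC array, for Cplx3 all NAC arrays but array 5 did. The differences were −0.81 and −0.96, that of Ccn2 not past the threshold in the deposited values (−0.31, adjusted p = 0.157). Nr4a2 differed by −0.85 (adjusted p = 0.0257) and was not past the threshold without NAC array 2 (−0.52, adjusted p = 0.065) or without NAC array 4 (−0.78, adjusted p = 0.0623). Ntsr1, a layer 6 marker, did not pass (0.19, adjusted p = 0.4).

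GABA-related genes differed both ways. Of 29 tested, 11 were higher and 8 lower in the PFC, 3 and 4 by at least 1 (median 0.16), against 20 and 5 in the deposited values. The shares of all genes were 33.9% higher and 22.4% lower, so the list's counts lie near them. Gad2, an enzyme of GABA synthesis, was at 9.69 to 10.35 (median 9.79) in the PFC and at 12.01, 11.27, 12.06, 12.003 and 12.09 in the NAC. Gad1, the other such enzyme, differed less, by −0.63, and with overlap, since PFC array 4 read 12.88. Its call was lost in the deposited values (−0.16, adjusted p = 0.386). Slc32a1, the vesicular GABA transporter, differed by −1.12, NAC array 2 reading just below PFC array 4. Cck, cholecystokinin, made by cortical neurons of both transmitter types, read 10.25, 11.58, 10.20, 10.40 and 8.92 in the NAC arrays and 12.22 to 12.48 (median 12.29) in the PFC arrays. Vip, a peptide of cortical interneurons, ranged from 10.27 over a median of 10.53 to 11.10 in the PFC, against 9.06, 9.56, 9.23, 8.71 and 7.37 in the NAC. Every PFC array was above every NAC array for both peptides, which were 4.13-fold and 3.52-fold higher, with NAC array 5 lowest. Interneuron markers common to both tissues differed little: Sst, somatostatin, −0.30, Npy, neuropeptide Y, −0.29, and Pvalb, parvalbumin, 0.38 (adjusted p = 0.197). The small values of Sst and Npy turned positive in the deposited values, at 0.32 and 0.31, and the call for Sst (adjusted p = 0.0477) was lost without any 1 of NAC arrays 1 to 4 and PFC arrays 2 to 7 (0.0593 to 0.132).

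Peptide receptors and the opioid system showed large differences both ways. Of 37 tested genes of that list 16 were higher and 13 lower, beside 33.9% and 22.4% of all genes (median 0.18). By at least 1, 7 were higher and 8 lower, beside 2.38% and 1.84% of all genes. In the deposited values the split was 26 and 8. Oprk1, the kappa opioid receptor, was at 5.80 to 6.69 (median 6.25) in the PFC and at 9.37, 8.94, 9.16, 9.47 and 9.43 in the NAC. Its 7.97-fold lower signal in the PFC went with that of its ligand precursor Pdyn. Oprm1, the mu opioid receptor, was below the filter, at 5.37 to 5.96 in the PFC and 6.25 to 6.79 in the NAC. Tacr3, a tachykinin receptor, differed by −1.98. On the PFC side stood Sstr3, a somatostatin receptor (1.54), Cckbr, the brain cholecystokinin receptor (1.34), Crhr1, the receptor of corticotropin-releasing hormone (1.07), and Npy1r (1.00). Adcyap1, the precursor of PACAP, differed by 1.54 on its brightest probe set and by 3.30 on another. Crh, the hormone's gene, differed by 0.81, with overlap, and by 0.51 without NAC arrays 2 and 5.

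Monoamine receptors had opposite leaders. Of 12 tested genes of the list of serotonin, noradrenaline and related receptors, 4 were higher and 4 lower in the PFC. The shares of all genes were 33.9% and 22.4%. By at least 1, 2 were higher and 3 lower, and in the deposited values 7 were higher and 4 lower at any size. Htr2c, a Gq-coupled serotonin receptor, read 11.27, 10.54, 11.29, 11.22 and 11.32 in the NAC arrays and 8.69 to 9.82 (median 9.10) in the PFC arrays. Htr1d and Htr1b, autoreceptors and heteroreceptors on axons, differed by −2.72 and −1.78. Htr1a, an inhibitory receptor on cell bodies and dendrites, ranged from 8.67 over a median of 8.95 to 9.11 in the PFC, against 7.93, 8.53, 7.88, 8.14 and 7.09 in the NAC. Hrh1, the H1 histamine receptor, was at 8.95 to 9.40 (median 9.23) in the PFC and at 7.78, 8.50, 7.60, 7.62 and 6.95 in the NAC. Neither gene overlapped, with differences of 1.01 (SE 0.17) and 1.52 (SE 0.18). Of 10 tested cholinergic genes 5 were lower and none higher, but 3 and 6 in the deposited values and 4 and 1 under median centring. Prima1, the membrane anchor of acetylcholinesterase, differed by −3.29, and Ache, the enzyme itself, by −0.69. The muscarinic M1 receptor Chrm1 differed by −0.17 (adjusted p = 0.0349), by 0.26 in the opposite direction in the deposited values, and was not past the threshold without any 1 of NAC arrays 2, 4 and 5 and PFC arrays 5 and 8 (adjusted p from 0.0507 to 0.108).

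Glutamate and GABA receptors differed less. Of 31 glutamate receptor genes 9 were higher and 11 lower, beside 33.9% and 22.4% of all genes, and 2 and 0 by at least 1. In the deposited values 19 were higher and 2 lower, and under median centring 11 and 7. Grm2, a presynaptic glutamate receptor that lowers release, read 6.68, 7.68, 7.03, 7.21 and 6.84 in the NAC arrays and 8.81 to 9.22 (median 9.12) in the PFC arrays. Grm8 differed by 1.12, with overlap, and Grm5, which in striatum acts beside the D2 receptor, by −0.81. Of 11 GABA receptor genes 2 were higher (10 in the deposited values), 1 lower and 8 did not pass, the lower one being Gabrg3 (−1.32) and the higher ones Gabra3 (0.87) and Gabrb2 (0.35).

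Potassium channel genes were more often higher than lower in the PFC. Of 53 tested, 29 were higher and 11 lower, beside 33.9% and 22.4% of all genes, 6 and 2 by at least 1. The median was 0.25, and in the deposited values 44 were higher and 4 lower. A median of this size is of the small kind that is not read as a difference between regions. Kcnk10, a leak channel, ranged from 7.34 over a median of 7.73 to 7.83 in the PFC, against 5.94, 6.62, 6.13, 5.97 and 5.72 in the NAC. Kcns3, a modifier of delayed rectifiers, differed by 1.38, Kcnc2, a fast delayed rectifier, by 1.33, and Kcnj3, a G protein-gated inward rectifier, by 1.32. Kcna5, a delayed rectifier of the Shaker family, went the other way and was at 6.70 to 8.44 (median 7.36) in the PFC and at 9.53, 8.77, 9.30, 9.49 and 9.65 in the NAC. Of 25 calcium and sodium channel genes 9 were higher and 12 lower, beside the same shares of all genes. In the deposited values 15 were higher and 4 lower, and under median centring 11 and 9. By at least 1, 0 were higher and 4 lower, namely Scn4b, Ryr3 (−1.53), Cacna2d3 (−1.11) and Ryr1 (−1.03). The ryanodine receptors release calcium from internal stores.

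Of 63 axon guidance and adhesion genes 20 were higher and 19 lower, beside 33.9% and 22.4% of all genes, and 2 each way by at least 1. The split was 42 and 7 in the deposited values and 25 and 14 under median centring. Ntn1, netrin-1, read 9.36, 8.13, 9.15, 8.94 and 8.98 in the NAC arrays and 6.64 to 6.99 (median 6.78) in the PFC arrays. Pcdh17, a protocadherin, was also lower (−1.12), and Plxna1, a semaphorin receptor, and Cdh6, a cadherin, were higher (1.19 and 1.02). Of 12 retinoid signalling genes 4 were lower and 2 higher, beside 22.4% and 33.9% of all genes (2 and 7 in the deposited values). The only ones past 1 were the receptors Rarb and Rxrg (−2.21).

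Immediate early genes, which neurons switch on with activity, were more often higher than lower in the PFC, mostly by less than 1. Of 32 tested, 19 were higher and 2 lower, against 33.9% and 22.4% of all genes, 4 and 0 by at least 1, and the median was 0.46. In the deposited values 30 were higher and 0 lower, and under median centring 22 and 0. Without NAC array 5, 2 were higher and 1 lower by at least 1. A median of this size is of the small kind that is not read as a difference between regions. Fos ranged from 10.83 over a median of 11.33 to 11.79 in the PFC, against 10.55, 10.99, 10.53, 10.36 and 9.48 in the NAC. Arc, a synaptic regulator, was at 9.99 to 10.71 (median 10.30) in the PFC and at 9.27, 10.25, 9.32, 9.22 and 9.23 in the NAC. NAC array 2 was the highest of its group for both and within the PFC range, and the differences were 0.96 (SE 0.21) and 0.86 (SE 0.16). Bdnf, a growth factor, read 8.48, 9.70, 8.32, 8.63 and 5.78 in the NAC arrays and 9.36 to 9.89 (median 9.67) in the PFC arrays. Its difference was 1.46 (adjusted p = 0.00981) and 0.86 without NAC array 5. Ptgs2 (cyclooxygenase 2) differed by 1.60, with overlap, and Ier2 and Dusp6 by 1.30 and 1.08. Egr1 differed by 0.32, a call lost on percentile ranks (adjusted p = 0.428). The list's level over the NAC arrays, 9.40, 9.86, 9.33, 9.44 and 9.003, was ordered at both ends as that of the cortical list, and their part in each other was not tested. The members lower in the PFC were Nr4a2 and Jund (−0.18), the latter lost without NAC array 2 (adjusted p = 0.076) or NAC array 4 (0.0557) and positive, at 0.06, under median centring.

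Oligodendrocyte genes were lower in the PFC in 22 of 23 cases, 9 by at least 1, with a median of −0.96, and in the deposited values 16 were lower and 2 higher. Mobp, a myelin protein, ranged from 9.47 over a median of 10.31 to 10.57 in the PFC, against 12.43, 12.63, 12.81, 12.48 and 12.28 in the NAC. Mog, a myelin surface protein, was at 6.77 to 7.75 (median 7.54) in the PFC and at 9.18, 9.54, 9.88, 9.48 and 9.26 in the NAC. The groups did not overlap for either, with differences of −2.28 (SE 0.16) and −2.07 (SE 0.17). Mbp, a major myelin protein, differed by −0.93, a call lost on percentile ranks (adjusted p = 0.236). Precursor cell genes were included among the 22 but differed less, such as Pdgfra at −0.40 and Cspg4 at −0.37. The list's level was 8.47 to 8.91 (median 8.77) in the PFC arrays and 9.68, 9.82, 9.94, 9.72 and 9.65 in NAC arrays 1 to 5, so that both groups stood apart, and the counts were 22 of 23 in each run that left out NAC arrays 2 and 5 or PFC arrays 3 and 4.

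For other non-neuronal cells the small differences took their direction from the scale. Of 29 astrocyte genes 6 were higher and 8 lower (median 0.03), but 24 and 1 in the deposited values and 8 and 5 under median centring. The 2 past 1 were Chrdl1, a secreted regulator of synapses that read 7.01, 7.14, 6.86, 6.15 and 6.65 in the NAC arrays and 9.04 to 9.55 (median 9.22) in the PFC arrays, and Id4, an inhibitor of differentiation (−1.27). Gfap, an intermediate filament of astrocytes, ranged over 5.62 to 9.34 among PFC arrays and did not pass (0.95, adjusted p = 0.0923), but did without PFC array 6 (1.23, adjusted p = 0.012). Of 18 microglial genes 2 were higher and 4 lower, and of 18 vessel genes 2 each way, none by 1. In the deposited values 16 of each list were higher and none lower, and under median centring 3 microglial genes each way, and 6 vessel genes higher and none lower. Of 10 meningeal genes 5 were higher and none lower, 3 by at least 1, led by Igfbp2, a growth factor-binding protein (1.54), and the transporters Slc6a13 (1.14) and Slc13a4 (1.09). Without PFC arrays 3 and 4, 1 of these was past 1, 1 further gene was lower, and the median fell from 0.55 to 0.38. In the modafinil arrays 0 meningeal genes were higher by at least 1. Choroid plexus and ependymal genes were mostly below the filter, with 2 of 15 tested.

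Lists of genes that every cell uses had no difference of 1 and no stable direction. Of 41 ribosomal protein genes 32 were lower and 2 higher in the PFC (median −0.25), under median centring 8 and 4 (median −0.11), and in the deposited values 0 and 23 (median 0.26). Of 68 oxidative phosphorylation genes 17 were higher and 18 lower (median −0.02), under median centring 30 and 2 (median 0.14), and in the deposited values 66 and 0 (median 0.51).

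**Figure D4:**
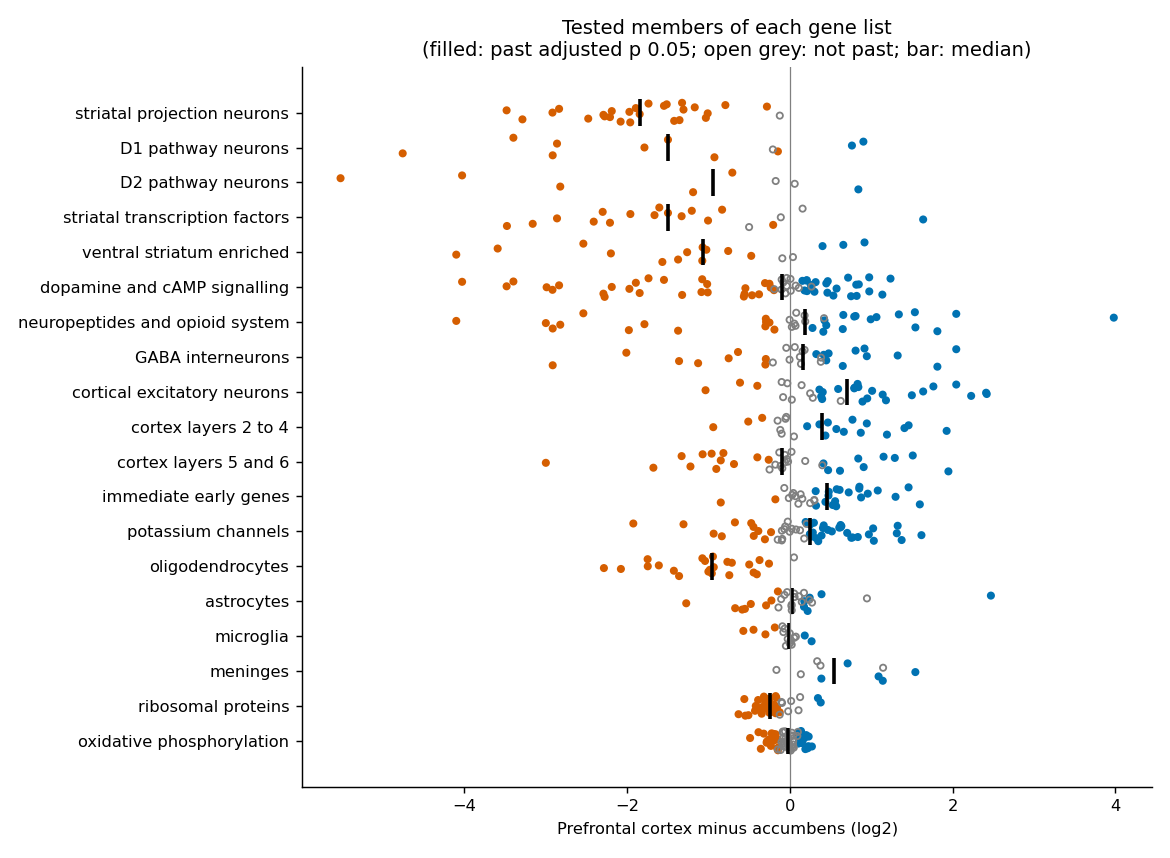
Difference PFC minus NAC (log2) of every tested member of 19 gene lists, in blue where higher and orange where lower past an adjusted p of 0.05, open where not past, with a bar at each median. Striatal and oligodendrocyte lists lie to the left, cortical excitatory and immediate early genes to the right, and the dopamine and cAMP list spreads to both sides.

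The same contrast in the 13 arrays of modafinil-treated mice, which share no array with the vehicle groups, gave 12682 of 27003 probe sets past the threshold, 345 higher and 629 lower by at least 1. Of the 550 probe sets higher by at least 1 in vehicle mice 540 were tested there, and 509 passed on the same side, 322 by at least 1. Of the 711 lower, 700 were tested, 697 passed on the same side and 546 did so by at least 1. None of those tested had the opposite sign. The modafinil arrays share the PFC and NAC differences in RNA handling and in the authors' normalization. A technical shift common to both treatments would recur here and cannot be told apart from region. Drd2 differed by −3.46, Gpr6 by −4.98, Penk by −2.44, Grp by 3.89, Cck by 1.92 and Mobp by −2.04, and Tbr1 again did not pass (0.70, adjusted p = 0.247). No probe set passed a test of the difference between the treatments' contrasts (limma interaction term, 27003 tested, smallest adjusted p = 0.934, with 1229 at an unadjusted p under 0.05). The 5 smallest p-values were those of Fkbp5, Isy1, Arntl2, Slc35a5 and Stxbp4.

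**Figure D5:**
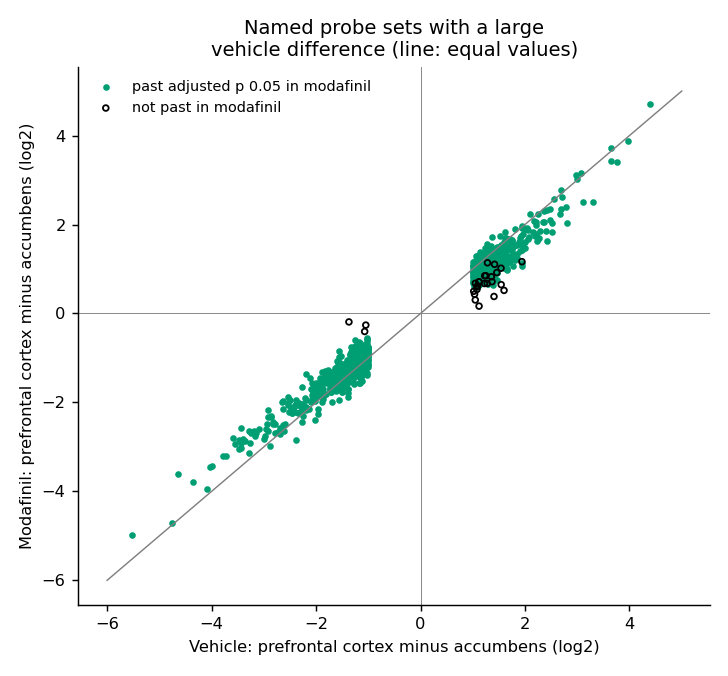
Difference PFC minus NAC (log2) in vehicle mice (x) and in modafinil mice (y) for 991 named probe sets with a vehicle difference of at least 1, with the line of equal values. All points have the same sign on both axes, 27 did not pass in modafinil mice, and 812 were smaller there than in the vehicle arrays that chose them.

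The third region sampled in vehicle mice, the ventral tegmental area (VTA, 5 arrays), shows which of these genes separate the cortex or the accumbens from both others, on a scale normalized over 18 arrays and without a test. Gpr6 was at 5.32 ± 0.32 (SD, n = 8) in the PFC, 10.85 ± 0.53 (n = 5) in the NAC and 5.86 ± 0.42 (n = 5) in the VTA. Penk was at 10.09 ± 0.68 (SD, n = 8) in the PFC, 12.97 ± 0.39 (n = 5) in the NAC and 9.90 ± 0.50 (n = 5) in the VTA. Both had one high region, the NAC. Cck was at 12.25 ± 0.10 (SD, n = 8) in the PFC, 10.18 ± 0.94 (n = 5) in the NAC and 9.67 ± 0.29 (n = 5) in the VTA, Vip at 10.50 ± 0.29 (SD, n = 8) in the PFC, 8.71 ± 0.85 (n = 5) in the NAC and 6.51 ± 0.58 (n = 5) in the VTA, each highest in the PFC. Drd2, by contrast, was at 5.40 ± 0.14 (SD, n = 8) in the PFC, 9.46 ± 0.14 (n = 5) in the NAC and 8.28 ± 0.69 (n = 5) in the VTA, and Nts at 5.25 ± 0.50 (SD, n = 8) in the PFC, 9.37 ± 0.68 (n = 5) in the NAC and 9.33 ± 0.41 (n = 5) in the VTA, so that the PFC alone was low. Mobp was at 10.15 ± 0.35 (SD, n = 8) in the PFC, 12.47 ± 0.21 (n = 5) in the NAC and 13.29 ± 0.16 (n = 5) in the VTA, and its order was VTA, NAC, PFC, whereas Grp, at 9.03 ± 0.26 (SD, n = 8) in the PFC, 5.03 ± 0.71 (n = 5) in the NAC and 8.40 ± 0.44 (n = 5) in the VTA, was low only in the NAC.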

How the data were processed

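Expression was measured on Affymetrix mouse genome arrays (3′ probe sets). The authors deposited log2 values made with RMA, per the submitters' processing notes, which give no version; the PFC arrays lie on a scale of their own. The 13 vehicle arrays were quantile normalized together, control probe sets were left out, and probe sets with a mean of the 2 group means at or above percentile 40 were tested with limma 3.58.1 in R 4.3.3 (Benjamini-Hochberg, threshold 0.05), fitting only these arrays. A large difference is at least 1 (log2) and past the threshold. Of 45101 probe sets, 34945 had 1 gene symbol, 932 several and 9160 none; a gene is read by its brightest probe set. The rule named the 12 genes of largest difference per direction and, within a list, no more than 4 genes each way; other genes were added after their values were seen. Members and lists were chosen with earlier results of these data known. On simulated data over 27003 probe sets, 97.8% of changes of size 1 and 81.4% of size 0.5 were found, and 4.37% of calls were unchanged probe sets. The simulation changed only 200 probe sets and gave each its own independent noise. It held no differences shared by a whole array and no difference of scale, so these shares do not carry over to the real calls. Precision is limited by the number of arrays. Alternatives covered scaling, filter, fit and single arrays.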

Additional observations from a re-analysis of the deposited data

Results flagged for a closer look

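Of 328 groups of arrays examined, 1 per named gene and region, 45 had an array whose gap to the nearest of the others was too large a part of the group's range by Dixon's test. Chance flags about 1 in 20 groups, and genes of 1 cell type are not independent. NAC array 2 was far below the other NAC arrays for Gnal at 11.65 (nearest array 12.23), Rarb at 9.40 (nearest array 10.46), Oprm1 at 6.25 (nearest array 6.69), Htr2c at 10.54 (nearest array 11.22), Dlk1 at 7.18 (nearest array 9.18), Gad1 at 12.43 (nearest array 12.72), Gad2 at 11.27 (nearest array 12.003), Ido1 at 8.19 (nearest array 9.09), Pde1c at 8.95 (nearest array 9.61), Prima1 at 8.19 (nearest array 8.72), Ryr1 at 8.40 (nearest array 9.05), Serpina9 at 8.19 (nearest array 9.06) and Slc32a1 at 9.65 (nearest array 10.50). NAC array 2 was far above them for Arc at 10.25 (nearest array 9.32), Calb2 at 9.46 (nearest array 8.20), Cnr1 at 11.17 (nearest array 10.74), Npr3 at 5.82 (nearest array 3.46), Plxna1 at 8.24 (nearest array 7.65), Tnnc1 at 7.53 (nearest array 6.58) and Trbv1 at 5.48 (nearest array 4.27). NAC array 5 was far below the other NAC arrays for Neurod1 at 4.70 (nearest array 7.23), Nrn1 at 7.52 (nearest array 9.42), Pde4d at 9.42 (nearest array 9.64), Pvalb at 7.67 (nearest array 8.999) and Rgs16 at 6.96 (nearest array 7.19). NAC array 5 was far above them for Cspg4 at 8.38 (nearest array 8.18). PFC array 3 stood below the rest of its group for Bcl11b at 9.85 (nearest array 10.51), Lmo3 at 8.90 (nearest array 9.44), Mbp at 12.28 (nearest array 12.73) and Mobp at 9.47 (nearest array 10.07). PFC array 4 stood below the rest of its group for Tbr1 at 8.77 (nearest array 9.22), Fezf2 at 8.28 (nearest array 9.25), Kcns3 at 7.62 (nearest array 8.10), Ovol2 at 7.94 (nearest array 8.59) and Trbv1 at 7.08 (nearest array 8.30). PFC array 4 stood above it for Pde1b at 9.80 (nearest array 9.51), Dlx6 at 7.50 (nearest array 6.64), Gad1 at 12.88 (nearest array 12.30), Serpina9 at 5.41 (nearest array 4.77), Slc32a1 at 9.69 (nearest array 9.36), Slc35d3 at 7.65 (nearest array 5.52) and Syt6 at 7.57 (nearest array 7.09). PFC array 5 stood below the rest of its group for Kcnk10 at 7.34 (nearest array 7.64). PFC array 5 stood above it for Cartpt at 7.81 (nearest array 7.39). PFC array 6 stood below the rest of its group for Dlk1 at 4.53 (nearest array 5.28). The cause was not tested.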

How the results depend on the processing

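The scale mattered most. In the deposited values 23251 probe sets passed, 2200 by at least 1 (1879 higher, 321 lower), the median of all genes was 0.49 in place of 0.050, and these small differences changed sign: Ppp1r1a 0.34, Pde2a 0.23, Rgs14 0.095, Chrm1 0.26, Cnih2 0.048, Cspg4 0.040, Jund 0.43, Npy 0.31, Pdgfra 0.10, Rasgrp1 0.47, Rgs7bp 0.48 and Sst 0.32. Median centring turned the called difference of Jund, to 0.055, and those of Rasgrp1 (0.10) and Rgs7bp (0.11), which did not pass before or after centring. Without a filter 25519 passed, 2140 by at least 1 (904 higher, 1236 lower), and with the filter at percentile 60, 713 did so by at least 1 (319 higher, 394 lower), since the settings test more or fewer probe sets. With 1 probe set per gene 7128 genes passed, 530 by at least 1 (299 higher, 231 lower). A test against a difference of 1 (limma treat) called 408, 127 higher and 281 lower. In modafinil mice 22652 passed on deposited values (1679 by at least 1), 22117 without a filter (1826) and 8363 at percentile 60 (529). Leaving out 1 array at a time gave 14467 to 16342 in vehicle mice, 1150 to 1499 by at least 1, 443 to 679 higher and 690 to 820 lower by at least 1. In modafinil mice it gave 11391 to 12830, and 845 to 1109 by at least 1, and 0 to 1 for the interaction, the 1 appearing without modafinil NAC array 1. Same-numbered arrays' deviations correlated at −0.11 to 0.15 over 5 numbers, and those of each NAC array's best PFC partner at 0.06 to 0.21. Since all of these are low, they cannot show whether arrays of 1 number share a mouse, which the labels do not say. With the replicate number as a block 12748 passed, 1249 by at least 1. Low signals limit what small differences can show, since no detection call was used.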
